A study of Drosophila melanogaster with 34 samples.

Results

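Chromatin accessibility of transposons was compared directly between 2 knockdowns in Drosophila melanogaster ovarian somatic cells: knockdown of heterochromatin protein 1a (HP1a-KD) and knockdown of the linker histone H1 (H1-KD). By label the comparison covers 4 of the 34 samples of the series, the 2 ATAC samples of HP1a-KD and the 2 of H1-KD. Their values were deposited as 2 of 29 value columns, 1 per knockdown. Whether a column pools both samples or holds 1 of them is not stated. All 129 transposon rows of the accessibility table were taken. The lowest 25% by the mean of both columns were then set aside from the counts and medians. The ratio was HP1a-KD over H1-KD, so the control column did not enter it.

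All groups are the same cultured line of ovarian somatic cells (OSC), a follicle-cell-like line with no germ cells, transfected with siRNA. The groups used here are HP1a-KD, H1-KD and, beside them as a description, Piwi-KD, Mael-KD (Maelstrom) and Control-KD, which received siRNA against EGFP. The labels used here state no time after transfection. The tables hold transposon rows only, so neither the cell type nor the depth of either knockdown was checked against genes.

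HP1a binds the histone mark H3K9me3 and compacts heterochromatin. H1 sits on the linker DNA between nucleosomes and helps to fold the chromatin fibre. In follicle cells the nuclear protein Piwi, guided by piRNAs, silences transposons at the chromatin level, and Maelstrom acts in the same pathway. ATAC-seq inserts sequencing adapters with a transposase where DNA is open, so the read density over a transposon sequence measures how accessible its copies are. In a bulk sample, copies that are more open in each cell and more cells with open copies cannot be told apart.

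The deposited accessibility values are RPKM, reads scaled to transposon length and to library depth, and the reads behind them were recovered from the values. The HP1a-KD column rests on 4978551 reads, of which 948483 (19.1%) lay on transposons. The H1-KD column rests on 4982164 reads, of which 768413 (15.4%) lay on transposons. Depth was therefore close to equal, and the transposon share was 1.24-fold higher in HP1a-KD. With 1 column per knockdown there is no spread between replicates and no test. The interval given beside a value is an exact 95% counting interval of the ratio of reads. It covers counting error only, since PCR copies cannot be told from separate molecules here.

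Much of the difference in transposon share came from 2 entries. On the RPM scale, reads scaled to library depth alone, HP1a-KD exceeded H1-KD by 36281 RPM over all transposons. The Gypsy1 entry gave 11758 RPM of this, COPIA gave 10948 RPM and all other entries together gave 13575 RPM. Without Gypsy1 and COPIA, transposons took 11.7% of reads in HP1a-KD and 10.3% in H1-KD. Gypsy1 alone took 27.7% of transposon reads in HP1a-KD and 26.6% in H1-KD, so it was the most heavily read entry in both, and it is named here after its values were seen.

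Most transposons were more accessible in HP1a-KD than in H1-KD, by a small amount. After the lowest 25% of rows by mean value were set aside, 96 transposons remained, with 119 to 263044 reads each in HP1a-KD and 63 to 204654 in H1-KD. The log2 ratio was taken after adding a pseudocount of 5.80 RPKM to both values, which understates the ratio of low rows. Its median was 0.32 (1.25-fold), and 80 of 96 were above 0. Counting intervals lay wholly above 0 for 72, wholly below for 13 and held 0 for 11. At a threshold of 1.5-fold, 25 of 96 (26.0%) were higher in HP1a-KD, 2 of 96 (2.08%) were lower, and 69 lay within it. The 2 lower in HP1a-KD, hence more accessible in H1-KD, were MDG3 and the mixed-case entry Gypsy2. Of the 25, 22 had a counting interval wholly past 1.5-fold, as did both of the lower ones.

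The lowest of the 25 were ZAM at a log2 ratio of 0.59 and DM412 and DM1731 at 0.60 each, and PROTOP at 0.57 was the nearest below. Because the whole distribution was shifted, the count also depends on where 0 is set. Measured relative to the median transposon, 13 (13.5%) were higher and 6 (6.25%) lower, so higher calls made up 68.4% of calls in place of 92.6%. The 4 that joined MDG3 and Gypsy2 on the lower side were DM297, STALKER3, BARI and HMSBEAGLE.

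**Figure D1:**
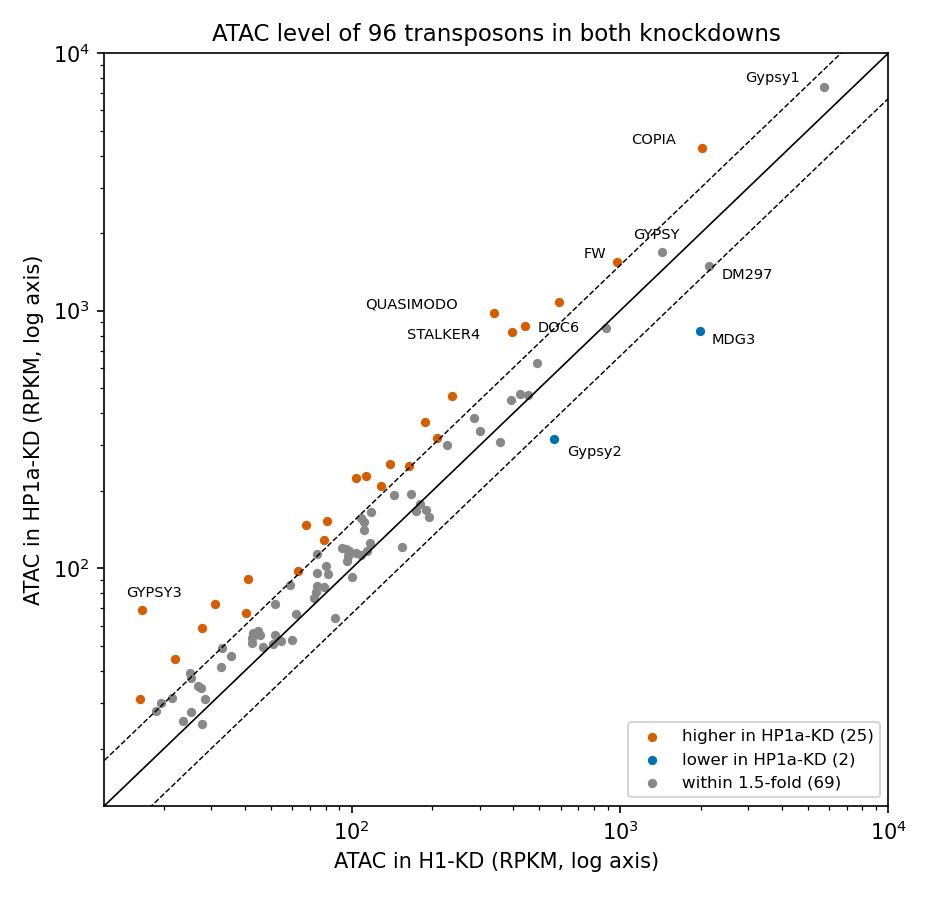
Accessibility (RPKM, log axes) of the 96 transposons in HP1a-KD (vertical) and H1-KD (horizontal), 1 point per transposon; the solid line marks equal values and the dashed lines 1.5-fold without the pseudocount that the calls include. The 25 points higher in HP1a-KD lie above the band, from low entries such as GYPSY3 to COPIA near the top, and MDG3 and Gypsy2 lie below it.

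The classes differed in their position along this ratio, and the LTR retrotransposons, which copy themselves through RNA with long terminal repeats at both ends, held most of the calls at both ends. LTR entries were also 56 of the 96 compared. Of these 56, 20 (35.7%) were at least 1.5-fold higher in HP1a-KD, against 26.0% of all transposons. Another 2 were lower, against 2.08% of all. The median log2 ratio was nearly the same for LTR entries (0.33), non-LTR entries (0.31) and all transposons (0.32). Of 27 non-LTR entries, 3 were higher and none was lower, and of 13 DNA transposons 2 were higher and none was lower. The highest class medians were 0.60 for the copia group (5 entries) and 0.54 for the gypsy group (24 entries), followed by 0.46 for the telomeric elements (3 entries) and 0.45 for the mdg1 group (8 entries). The lowest were 0.16 for BEL/Pao elements (7 entries) and 0.02 for the class of R elements and ribosomal DNA (4 entries). Classes were assigned by name, and no test of a class was made. The order changed after division by input, whose columns come from different numbered samples. The medians were then 0.76 for copia, 0.60 for telomeric, 0.60 for gypsy and 0.50 for jockey-clade and I-clade. They were 0.36 for BEL/Pao and for the mdg3 group, 0.33 for DNA transposons, and 0.25 for mdg1 and for R elements. Whether DNA content or the numbered sample moved the order was not tested. No class had a median below 0 on the deposited scale. On the scale relative to the median transposon the medians of 4 classes changed sign, to -0.29 for R elements, -0.16 for BEL/Pao, -0.13 for the mdg3 group and -0.01 for jockey-clade and I-clade elements.

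**Figure D2:**
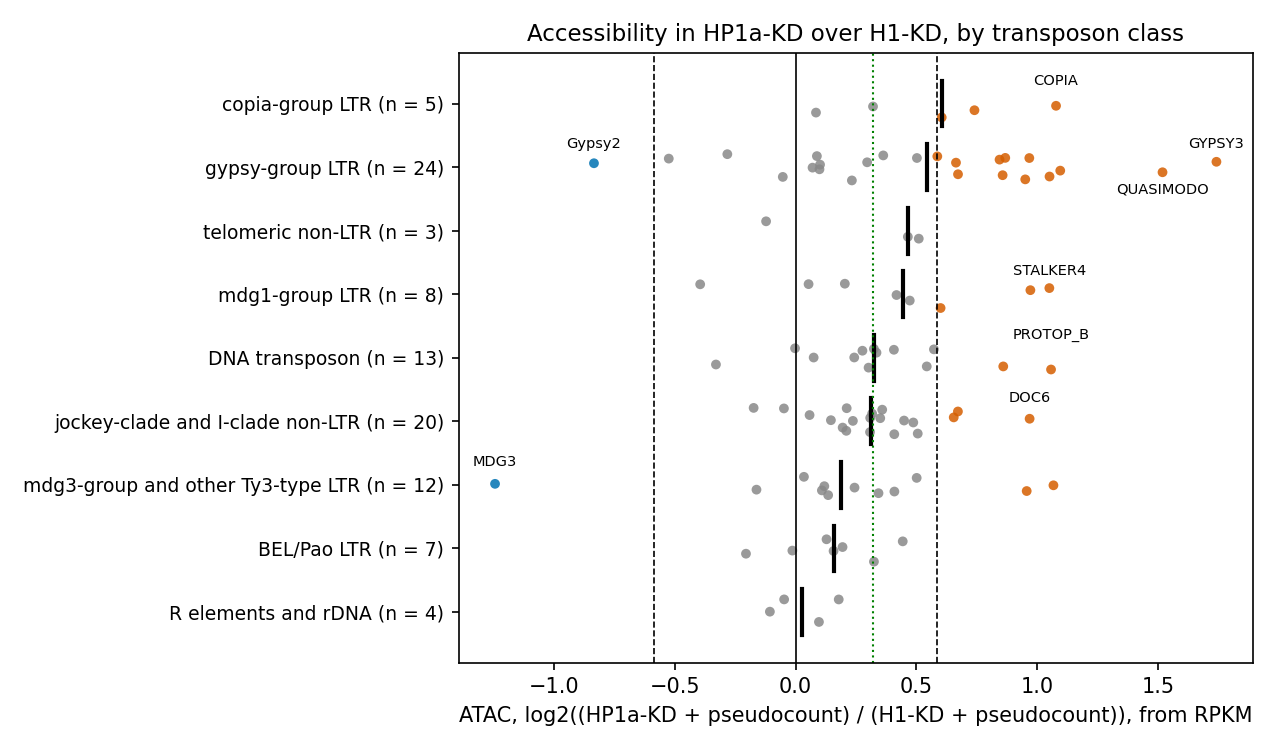
The log2 ratio of HP1a-KD over H1-KD accessibility for each transposon, by class, with the number of entries in brackets; thick bars are class medians, dashed lines mark 1.5-fold and the dotted line the median of all 96 transposons (0.32). Copia-group and gypsy-group medians lie at 0.60 and 0.54, the R elements at 0.02, and the gypsy group spans nearly the whole range.

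The gypsy group, which includes endogenous retroviruses with an envelope gene, had the widest range of ratios of the classes. Of its 24 entries 12 were called higher, against 26.0% of all transposons, and 1 was lower. GYPSY3 had the highest ratio of all, with 69.2 RPKM in HP1a-KD and 16.6 RPKM in H1-KD, a log2 ratio of 1.74. Its counting interval without the pseudocount was 1.92 to 2.20, because the pseudocount is large beside the H1-KD value. QUASIMODO had 984 RPKM in HP1a-KD and 339 RPKM in H1-KD, a log2 ratio of 1.52, and was 2.87-fold higher in HP1a-KD. Next to it, DMTOM1 had 72.5 RPKM in HP1a-KD and 30.8 RPKM in H1-KD, a log2 ratio of 1.10. It rests on only 148 and 63 reads, and its interval of 0.80 to 1.68 was correspondingly wide.

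Other gypsy-group entries were about 2-fold apart. GYPSY2 had 91.4 RPKM in HP1a-KD and 41.1 RPKM in H1-KD, a log2 ratio of 1.05. GYPSY6A had 466 RPKM in HP1a-KD and 236 RPKM in H1-KD, a log2 ratio of 0.97. GTWIN, an element with an envelope gene, had 58.9 RPKM in HP1a-KD and 27.7 RPKM in H1-KD, a log2 ratio of 0.95. These rows ranged from low to intermediate read density, and in each the HP1a-KD value stood above that of H1-KD by far more than counting error. GYPSY6 and GYPSY4, singled out after their values were seen, had smaller log2 ratios of 0.67 and 0.66.

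At the other end of the same group stood Gypsy2 in mixed case, an entry separate from GYPSY2 in capitals. Gypsy2 had 316 RPKM in HP1a-KD and 569 RPKM in H1-KD, a log2 ratio of -0.83 (interval -0.88 to -0.81), 1.78-fold higher in H1-KD. DM297 had 1489 RPKM in HP1a-KD and 2146 RPKM in H1-KD, a log2 ratio of -0.53 that did not reach 1.5-fold. HMSBEAGLE had 158 RPKM in HP1a-KD and 194 RPKM in H1-KD, a log2 ratio of -0.28. NOMAD was close to even, at a log2 ratio of -0.05. How the authors shared out reads that match several related entries is not stated, so values of near relatives such as DM297 and DM176 carry that uncertainty. DM176 had 255 RPKM in HP1a-KD and 139 RPKM in H1-KD, a log2 ratio of 0.84, on the opposite side from DM297.

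A list of 15 LTR elements often described as silenced by Piwi in this line cuts across the gypsy and mdg1 groups. An earlier analysis of these data used such a list, so it is not independent of them. Of its 14 kept members, 8 were at least 1.5-fold higher in HP1a-KD, against 26.0% of all transposons, none was lower, and 13 were above 0. Their median log2 ratio was 0.59, against 0.32 over all transposons. The 8 were QUASIMODO, STALKER4, GTWIN, IDEFIX, GYPSY5, DM176, DM412 and ZAM. Relative to the median transposon, where 13.5% of all were higher, QUASIMODO (1.20), STALKER4 (0.73) and GTWIN (0.63) stayed past 1.5-fold. IDEFIX (0.55), GYPSY5 (0.54), DM176 (0.53), DM412 (0.28) and ZAM (0.27) did not. The list median was 0.27 on that scale. IDEFIX, an element controlled from the flamenco piRNA locus, had 152 RPKM in HP1a-KD and 80.8 RPKM in H1-KD, a log2 ratio of 0.87. ZAM, controlled from the same locus, had 97.9 RPKM in HP1a-KD and 63.3 RPKM in H1-KD, a log2 ratio of 0.59. GYPSY5 had 44.6 RPKM in HP1a-KD and 22.01 RPKM in H1-KD, a log2 ratio of 0.86.

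The 6 other kept members of that list lay within 1.5-fold. GYPSY, the endogenous retrovirus that gives the group its name, had 1690.0 RPKM in HP1a-KD and 1437 RPKM in H1-KD, a log2 ratio of 0.23 (interval 0.22 to 0.25). MDG1 had 452 RPKM in HP1a-KD and 392 RPKM in H1-KD, a log2 ratio of 0.20. BLOOD had 471 RPKM in HP1a-KD and 454 RPKM in H1-KD, a log2 ratio of 0.05. These abundant targets were nearly level between the knockdowns, and relative to the median transposon their log2 ratios were negative, at -0.09, -0.11 and -0.27. STALKER2 and TABOR stood between, at log2 ratios of 0.47 and 0.42, and DM297 was the single member below 0. TIRANT could not be compared, with 5 reads in HP1a-KD and 4 reads in H1-KD.

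All 5 copia-group entries were above 0, and 3 of 5 passed 1.5-fold, against 26.0% of all transposons. COPIA, the founding member of the group, had 4265 RPKM in HP1a-KD and 2017 RPKM in H1-KD, a log2 ratio of 1.08 (interval 1.06 to 1.10). It was the most accessible of all the called entries in either knockdown. FROGGER had 31.1 RPKM in HP1a-KD and 16.3 RPKM in H1-KD, a log2 ratio of 0.74. DM1731 had 320 RPKM in HP1a-KD and 208 RPKM in H1-KD, a log2 ratio of 0.60. Both remaining entries lay within 1.5-fold, Copia1 at a log2 ratio of 0.32 and COPIA2 at 0.08. Relative to the median transposon, COPIA stayed past 1.5-fold at 0.76, FROGGER (0.42) and DM1731 (0.29) did not, and COPIA2 stood below 0, at -0.23.

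In the mdg1 group 3 of 8 entries were higher in HP1a-KD, against 26.0% of all transposons. STALKER4 had 823 RPKM in HP1a-KD and 394 RPKM in H1-KD, a log2 ratio of 1.05. DM412B had 228 RPKM in HP1a-KD and 114 RPKM in H1-KD, a log2 ratio of 0.97. DM412 had 251 RPKM in HP1a-KD and 163 RPKM in H1-KD, a log2 ratio of 0.60. The 3 STALKER entries lay on both sides of 0. STALKER3, a short entry with 119 and 160 reads, had 64.3 RPKM in HP1a-KD and 86.3 RPKM in H1-KD, a log2 ratio of -0.40 (interval -0.78 to -0.07).

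The mdg3 group and other Ty3-type elements held the strongest call on the H1-KD side and 2 calls on the HP1a-KD side. MDG3 had 832 RPKM in HP1a-KD and 1979 RPKM in H1-KD, a log2 ratio of -1.24 (interval -1.27 to -1.23), 2.37-fold higher in H1-KD. It was the single transposon more than 2-fold higher in H1-KD, against 8 more than 2-fold higher in HP1a-KD. INVADER2 had 224 RPKM in HP1a-KD and 104 RPKM in H1-KD, a log2 ratio of 1.07. INVADER4 had 370 RPKM in HP1a-KD and 188 RPKM in H1-KD, a log2 ratio of 0.96. A member of the same family, INVADER3, stood at -0.16, so the kept INVADER entries lay on both sides of 0.

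**Figure D3:**
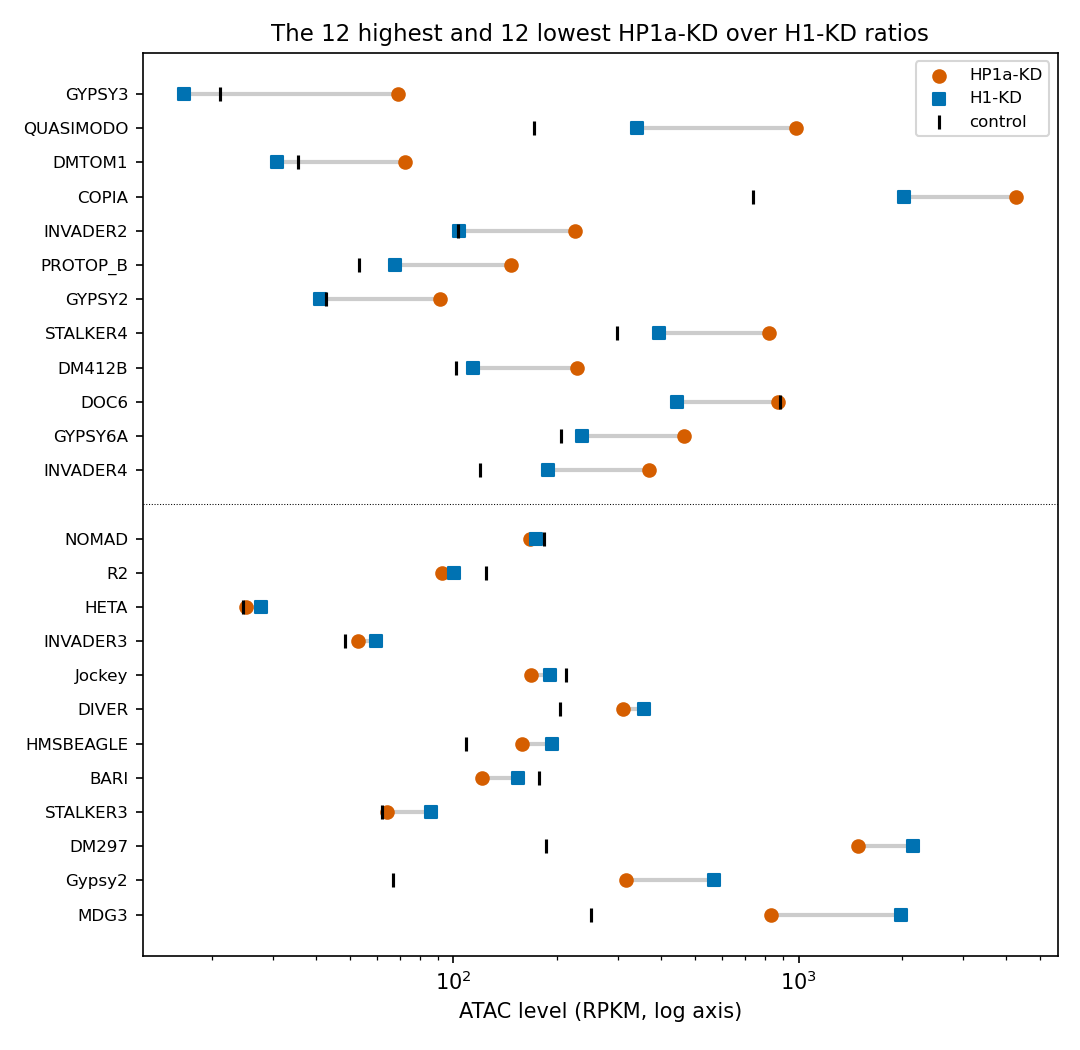
Accessibility (RPKM, log axis) of the 12 transposons with the highest and the 12 with the lowest ratio, with HP1a-KD, H1-KD and Control-KD as separate points, given as a description. MDG3, Gypsy2 and DM297 lie far above control in both knockdowns, whereas DOC6 is at the control level in HP1a-KD and below it in H1-KD.

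BEL/Pao elements were close to level between the knockdowns, with none of 7 past 1.5-fold, against 26.0% of all transposons higher and 2.08% lower. Their highest entry, DIVER2, had 72.6 RPKM in HP1a-KD and 51.8 RPKM in H1-KD, a log2 ratio of 0.44. Their lowest, DIVER, had 309 RPKM in HP1a-KD and 357 RPKM in H1-KD, a log2 ratio of -0.21. A list of 10 elements known mainly from the germline, which includes ROO, DIVER and the telomeric elements, had no call in either direction among its 9 kept members, and its median was 0.16 (-0.16 relative to the median transposon).

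Among the jockey-clade and I-clade elements, which are non-LTR retrotransposons, 3 of 20 were higher in HP1a-KD, against 26.0% of all transposons. DOC6 had 874 RPKM in HP1a-KD and 443 RPKM in H1-KD, a log2 ratio of 0.97 (interval 0.94 to 1.01). Its input was 550 RPKM in HP1a-KD and 338 RPKM in H1-KD, and divided by input the log2 ratio was 0.28, below the threshold. These inputs are from samples 3 and 1, and the control inputs of those samples differed in the same direction. DOC6 had 9182 of 4140433 control input reads in sample 3 and 5565 of 3870079 in sample 1. Unlike most others, DOC6 stood at 885 RPKM in Control-KD, so its ratio came with a low H1-KD value. FW and DOC5, the other calls of the class and picked after their values were seen, had log2 ratios of 0.67 and 0.65. The lowest of the class was Jockey, with 168 RPKM in HP1a-KD and 190.0 RPKM in H1-KD, a log2 ratio of -0.17.

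The telomeric elements, which maintain chromosome ends in flies, were low in both knockdowns. TART had 30.1 RPKM in HP1a-KD and 19.4 RPKM in H1-KD, a log2 ratio of 0.51. HETA had 24.97 RPKM in HP1a-KD and 27.7 RPKM in H1-KD, a log2 ratio of -0.12. No telomeric entry reached 1.5-fold with the pseudocount added, and TART and HETA lay on opposite sides of 0. TART falls short through the pseudocount: its counting interval without it, 0.54 to 0.73, lies partly past 1.5-fold, and it was called with a pseudocount of 0.01 of the median. TART (0.79) and TART_B1 (0.60) also passed after division by input.

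The R elements were the class nearest to even. This class, assigned by name, holds R1 and R2, which insert into ribosomal RNA genes, and the DMRT1 entries, whose insertion sites were not checked. DMRT1B had 342 RPKM in HP1a-KD and 301 RPKM in H1-KD, a log2 ratio of 0.18. R2 had 92.8 RPKM in HP1a-KD and 100.3 RPKM in H1-KD, a log2 ratio of -0.11. None of the 4 exceeded the median of all transposons.

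DNA transposons, which move without an RNA copy, had a median log2 ratio of 0.32, equal to that of all transposons. Their 2 calls were both relatives of the P element. PROTOP_B had 147 RPKM in HP1a-KD and 67.5 RPKM in H1-KD, a log2 ratio of 1.06. PROTOP_A had 1080.3 RPKM in HP1a-KD and 593 RPKM in H1-KD, a log2 ratio of 0.86. The third member of this family, PROTOP, stood just short at 0.57. BARI, of the Tc1/mariner type, was the lowest DNA transposon, with 121 RPKM in HP1a-KD and 154 RPKM in H1-KD, a log2 ratio of -0.33.

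The values beside Control-KD are given as a description. Both comparisons share the control column, and the 25 were selected for a high HP1a-KD and a low H1-KD value, so nothing is read from their shares above control. In HP1a-KD, 21 of the 25 were at least 1.5-fold above control, where 32.3% of all 96 were. In H1-KD, 3 of the 25 were at least 1.5-fold above control, where 12.5% of all 96 were, and 1, DOC6, was at least 1.5-fold below it (1.04% of all). COPIA had 4265 RPKM in HP1a-KD, 2017 RPKM in H1-KD and 738 RPKM in Control-KD. QUASIMODO likewise exceeded its 172 RPKM in Control-KD in both knockdowns, whereas GYPSY3 in H1-KD was below its 21.0 RPKM in Control-KD.

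Among the 6 entries lower in HP1a-KD relative to the median transposon, MDG3, Gypsy2 and DM297 stood far above control in both knockdowns, as COPIA and QUASIMODO did on the HP1a-KD side. Control-KD values were 250.3 RPKM for MDG3, 67.0 RPKM for Gypsy2 and 185 RPKM for DM297. The log2 ratio of HP1a-KD over Control-KD was 1.71 for MDG3, 2.15 for Gypsy2 and 2.97 for DM297. The log2 ratio of H1-KD over Control-KD was 2.95 for MDG3, 2.98 for Gypsy2 and 3.49 for DM297. The other 3 were closer to control. The log2 ratio of HP1a-KD over Control-KD was 0.51 for HMSBEAGLE, 0.05 for STALKER3 and -0.53 for BARI. The log2 ratio of H1-KD over Control-KD was 0.80 for HMSBEAGLE, 0.44 for STALKER3 and -0.20 for BARI, so BARI was below control in both.

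In the other knockdowns of the accessibility table, the 25 were mixed. Of them, 7 were at least 1.5-fold above control in Piwi-KD (11.5% of all 96) and 2 in Mael-KD (8.33% of all). GTWIN had the highest Piwi-KD value over control among the 25, at a log2 ratio of 2.79, followed by QUASIMODO at 2.33. The H1-side entries differed among themselves. Gypsy2 had log2 ratios over control of 5.31 in Piwi-KD and 1.58 in Mael-KD, and MDG3 had 0.40 in Piwi-KD and 1.39 in Mael-KD.

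Control cells had nearly the same median HP1a occupancy on the 25 as on the 69 within 1.5-fold, and a higher median of H3K9me3 on the 25; neither difference was tested. The median log2 enrichment of HP1a over input was 0.89 for the 25 and 0.85 for the 69, and that of H3K9me3 was 1.60 for the 25 and 1.38 for the 69. H1 itself was at 0.25 for the 25 and 0.27 for the 69. Across the 96 transposons the rank correlation (Spearman) of the accessibility ratio was -0.01 with HP1a, 0.02 with H3K9me3 and -0.11 with H1. These correlations are descriptions across transposons, whose values share libraries, consensus length and reads of related entries. Whether occupancy bears on the ratio was not tested. As single entries, R1 had HP1a at 1.66 and H3K9me3 at 2.19 over input, above the medians of all transposons, and an accessibility ratio of -0.05. COPIA had HP1a at 0.10 over input and an accessibility ratio of 1.08. R1 was picked after its values were seen.

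H1 occupancy in HP1a-KD, from 1 library and its paired control, had a lower median on the 25 than on the 69. The median log2 difference of H1 over input, HP1a-KD minus control, was -0.23 for the 25, with 22 of 25 below 0, and -0.05 for the 69, with 51 of 69 below 0. QUASIMODO stood at -0.71, STALKER4 at -0.27 and COPIA at -0.35. GYPSY6A, at 0.64, has too few reads to place: 4 H1 ChIP reads over 9 input reads in HP1a-KD, against 5 over 20 in the control. The rank correlation with the accessibility ratio was -0.30 across the 96. The entries with the lowest accessibility ratios also lay below 0, at -0.21 for MDG3, -0.43 for Gypsy2 and -0.48 for DM297. The rest of the 12 lowest were split. STALKER3 stood at -0.29 and INVADER3 at -0.25. Closer to 0 were BARI at -0.04, HMSBEAGLE at -0.03, NOMAD, R2 and Jockey at -0.02 each, DIVER at -0.004 and HETA at 0.08. In the opposite direction, HP1a over input in H1-KD minus control had a median of 0.10 for the 25 and 0.13 for the 69.

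Piwi-bound small RNA had a higher median on the 25. The 25 included 20 of the 56 LTR entries and 8 of the 14 kept members of the Piwi-target list. The other kept members of that list, all within 1.5-fold, had from 934 (STALKER2) to 3406 (GYPSY) RPM per kilobase. Whether this make-up accounts for the difference in medians was not tested. The median of Piwi-bound small RNA in control cells was 636 RPM per kilobase for the 25, 15.9 for the 69 and 30.9 for all 96. Spread within the 25 was wide, from 3.14 to 6390 RPM per kilobase. The rank correlation with the accessibility ratio was 0.31. High small RNA was not particular to the HP1a-KD side, because Gypsy2 had 1500.0 RPM per kilobase, DM297 had 1673 and MDG3 had 417. The 12 lowest ratios were split, however. STALKER3 had 2040 and HMSBEAGLE had 1239, but INVADER3 had 6.78, DIVER 6.34, BARI 2.58, HETA 0.18 and R2 0.04. Of the 25, COPIA was among those with little, at 39.2 RPM per kilobase.

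Transposon RNA was measured in H1-KD but RNA of HP1a-KD cells was not analysed here. RNA in H1-KD was at least 1.5-fold above control for 72.9% of the 96, and the median log2 ratio was 1.12 for the 25 and 1.25 for the 69. Among the H1-KD-side entries it was 2.64 for MDG3, 0.91 for Gypsy2 and 3.05 for DM297. STALKER4 and QUASIMODO, which were more accessible in HP1a-KD, had RNA log2 ratios of 3.26 and 2.78 in H1-KD. The rank correlation with the accessibility ratio was -0.05.

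**Figure D4:**
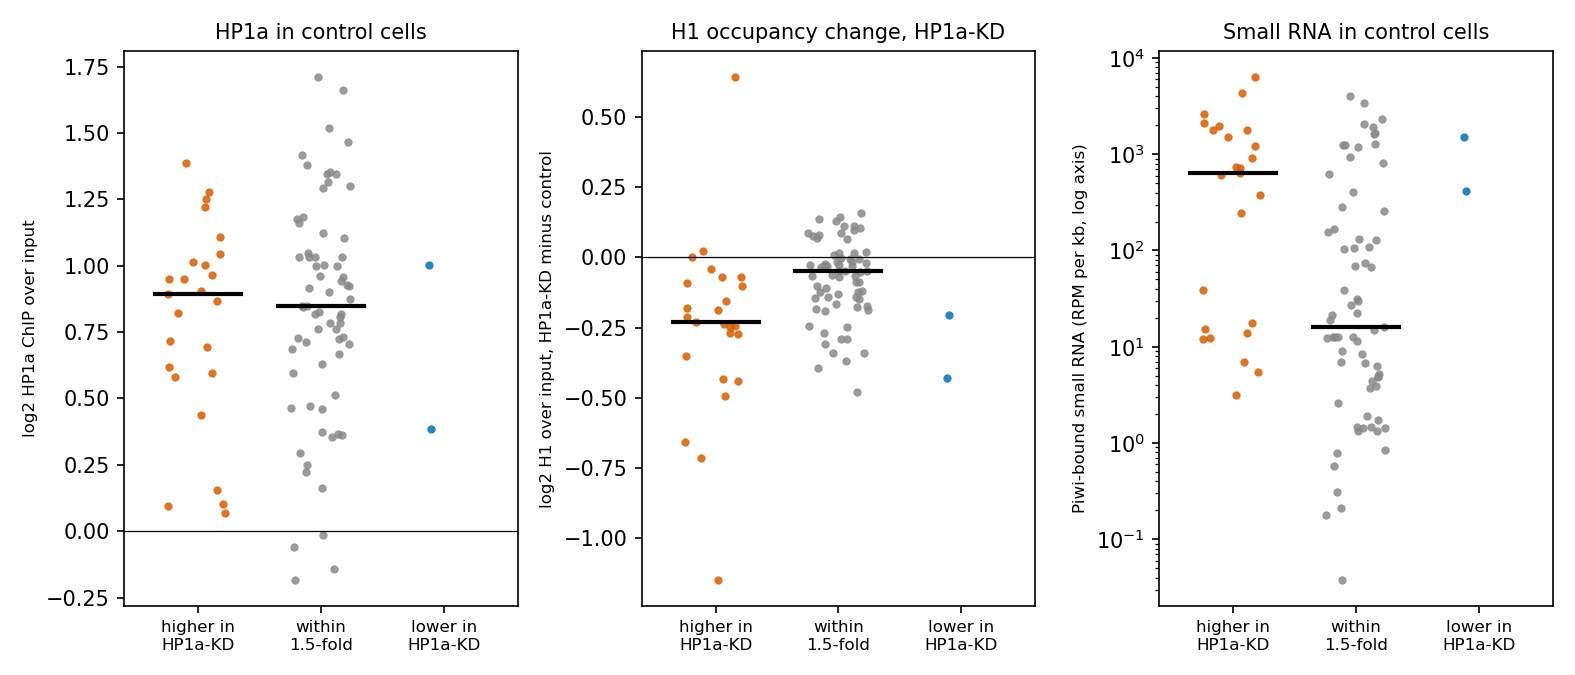
Other readouts of the 96 transposons, split into those higher in HP1a-KD (25), within 1.5-fold (69) and lower in HP1a-KD (2); each point is a transposon and bars are medians. The panels show log2 HP1a over input in control cells, log2 H1 over input in HP1a-KD minus control, and Piwi-bound small RNA (RPM per kilobase, log axis). HP1a overlaps widely between the 25 and the 69, while the median of small RNA is 636 for the 25 and 15.9 for the 69.

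Genomic DNA content, read from the ChIP inputs, was similar in both knockdowns. The median log2 ratio of input, HP1a-KD over H1-KD, was -0.07, and 2 of 96 transposons were past 1.5-fold in either direction. Both were among the 25: DOC6 at 0.69 and GYPSY6A at -0.76, GYPSY6A from 9 input reads in HP1a-KD and 15 in H1-KD. After each accessibility value was divided by the input of its own knockdown, 34 transposons were higher in HP1a-KD, 22 of the 25 among them, and 4 were lower. Of the 22, DMTOM1 had 1 input read in HP1a-KD and 1 in H1-KD. Among the calls gained, DNAREP1, MARINER2 and BS3, picked after their values were seen, also rest on few input reads. They had 1, 5 and 8 in HP1a-KD and 4, 5 and 13 in H1-KD. The 3 calls lost were DOC6 at 0.28, DM412 at 0.26 and PROTOP_A at 0.42. The inputs come from different numbered samples, sample 3 for HP1a-KD and sample 1 for H1-KD, and the control inputs of these samples also differed. Of 4140433 control input reads in sample 3, DOC6 had 9182, DM412 had 7500 and PROTOP_A had 1778. Of 3870079 in sample 1, DOC6 had 5565, DM412 had 5741 and PROTOP_A had 1293. How far the division by input reflects DNA content or the numbered sample was not tested.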

How the data were processed

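Sample titles gave each library's assay and knockdown. The authors deposited 11 tables of transposon rows. The deposited accessibility, ChIP, input and RNA values are RPKM and the deposited small RNA values RPM; both units were deduced from the values, since a whole-number length per transposon (186 to 14477 bp) and read total per column gave whole reads for 3606 of 3606 nonzero values within 0.05. Per the submitters' processing notes, ATAC used cutadapt and MACS2; ChIP, input and small RNA used cutadapt and Bowtie 1.0.1; RNA used TopHat2 2.0.7, Bowtie2 2.0.6, Cufflinks 2.1.1 and cutadapt; the build was dm3. A transposase shift of ATAC reads, and whether a column pools both numbered samples, are not given in the sources used here.

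The pseudocount was 0.1 of the median nonzero accessibility value (5.80 RPKM). The lower 25% of rows by the mean of both columns (33 of 129) was left out, so a row high in 1 knockdown alone could pass. Intervals are Clopper-Pearson on recovered reads, without the pseudocount, so for low values they do not always hold the printed log2 ratio. ChIP was taken over the matching input (same knockdown, same number). RNA ratios used a pseudocount of 0.553 RPKM. RPKM is scaled to each library, so a change common to all DNA is not seen.

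Named transposons are the 12 highest and 12 lowest ratios, the OSC target list, all members of a class or list whose median passed 1.5-fold, and the highest and lowest member of each other class; others are said to be chosen afterwards. Members, classes and lists were chosen with earlier results of these data known. Calculations used python 3.11.15, numpy 2.4.6, pandas 2.3.3 and scipy 1.17.1 and were tested on simulated data. Other pseudocounts, filters, scalings, division by input and a 2-fold threshold were tried.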

Additional observations from a re-analysis of the deposited data

How the results depend on the processing

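Relative to the median transposon, 13 were at least 1.5-fold higher in HP1a-KD and 6 lower, and as shares of all transposon reads 14 were higher and 5 lower; the median was then 0.038 in place of 0.32. Division by input gave 34 higher and 4 lower, and a 2-fold threshold 8 higher and 1 lower. Other pseudocounts and filters gave 18 to 28 higher and 2 lower. All 25 called higher stayed above 0 after division by input, the only alternative that could change their sign. Pseudocounts, filters and thresholds cannot change it, and the other scalings lower each log2 ratio by less than the call threshold. Leaving out the lower 50% by level keeps only 19 of the 25 in the comparison. Past 1.5-fold under each alternative that kept that threshold were 12: GYPSY3, QUASIMODO, DMTOM1, COPIA, INVADER2, PROTOP_B, GYPSY2, STALKER4, DM412B, GYPSY6A, INVADER4 and GTWIN. Of these, GYPSY3, DMTOM1 and GTWIN are not compared when the lower 50% is left out. Division by input says little for DMTOM1, with 1 input read in HP1a-KD and 1 in H1-KD. The same holds for GYPSY6A, with 9 and 15. MDG3 and Gypsy2 stayed past 1.5-fold in the other direction. The cause of these shifts was not tested. No paired analysis was possible because the table has 1 column per knockdown; for the same reason no replicate could be left out. The depth leaves the lowest entries, such as DMTOM1 and STALKER3, with wide intervals.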

Other observations

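Among the 33 low entries set aside, 29 were above 0, with log2 ratios from -0.44 to 0.79 and a median of 0.26. The numbered relatives GYPSY11 and GYPSY10, picked after their values were seen, passed 1.5-fold. GYPSY11 had 20.7 RPKM in HP1a-KD and 9.49 RPKM in H1-KD, a log2 ratio of 0.79. GYPSY10 had 26.6 RPKM in HP1a-KD and 14.9 RPKM in H1-KD, a log2 ratio of 0.65. None of the 33 was at least 1.5-fold lower.

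Entries that share a family name varied to different degrees. The 10 kept entries named GYPSY, in either case, spanned log2 ratios of -0.83 to 1.74, with 6 called higher and 1 lower. The 5 kept INVADER entries spanned -0.16 to 1.07. The 5 kept DOC entries, by contrast, were all above 0, from 0.24 to 0.97, and the 6 kept G entries lay between -0.05 and 0.51 with no call. The 3 kept BS entries lay between 0.21 and 0.32. Shared names do not state how alike the sequences are, and reads shared between entries were not resolved.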
